A study of Mus musculus with 24 samples.

Results

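Cirbp and Rbm3, the genes of the cold-inducible RNA-binding protein and of RNA-binding motif protein 3, were followed over the day in the ventral tegmental area (VTA) of the mouse. Every row of the array table whose annotated gene symbol is Cirbp or Rbm3 was taken. This gave 2 of the 19938 genes that have a probe set of their own, and 4 of the 23410 probe sets with an annotated gene. Cirbp has 1 probe set (10364712) and Rbm3 has 3 (10556113, 10358454 and 10603469). The Rbm3 probe set with the highest mean, 10556113, stands for the gene, and the other two are called the second (10358454) and the third (10603469) probe set.

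The study asked at which times of day genes are active in the VTA, a midbrain region whose dopamine neurons take part in reward. Male wild-type C57BL/6N mice of 10 to 12 weeks were kept in 12 h of light and 12 h of darkness at 21 °C with free access to chow and water, and the labels name no transgene or treatment. Zeitgeber time (ZT) counts hours from lights on, and 4 mice were taken at each of ZT0, ZT4, ZT8, ZT12, ZT16 and ZT20, giving 24 arrays of 1 mouse each. Tissue was a 0.5-mm punch of the region, so each array holds RNA of several cell types, and a change in the number of cells of a type cannot be told apart from a change in RNA per cell.

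Cirbp and Rbm3 are small, closely related proteins, each with 1 RNA recognition motif followed by a stretch rich in arginine and glycine. Both are produced in greater amounts when mammalian cells are cooled mildly and in smaller amounts when they are warmed, the opposite of the heat shock genes, which warming induces. In cultured cells temperature cycles like those of the body drive Cirbp, whose protein binds transcripts of clock genes such as Clock, and Rbm3 is known in the mouse brain for its part in preserving synapses after cooling.

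In the RefSeq annotation of GRCm38.p6, Cirbp is a protein-coding gene at chr10:80165990-80172786 and Rbm3 a protein-coding gene at chrX:8138975-8145880. The array's own genome build is not given in the sources used here. The long non-coding RNA gene Rbm3os (chrX:8145427-8147964) overlaps Rbm3 by 454 bp, and a pseudogene of Rbm3 lies at chr1:150264926-150266073. All 3 Rbm3 probe sets are annotated with the same transcripts, so whether any of them also picks up the pseudogene is not known, and their levels are given separately.

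The set of mouse promoters used here lists 2 windows of 300 bases for Cirbp, both on the plus strand. Each runs from 250 bases before to 50 bases after a transcription start. Both lie downstream of the RefSeq gene start at chr10:80165990, and the bases around that start were not searched. The upstream window is printed because it holds the 8-base mild-cold responsive element known from work on mouse Cirbp. Its GC content is 65.7%, against a median of 52.7% over 32851 mouse promoter windows. Capitals mark that element (TCCCCGCC) and the CCAAT boxes, of which the second is read on the opposite strand.
Cirbp, chr10:80167589-80167888 (GRCm38.p6, plus strand): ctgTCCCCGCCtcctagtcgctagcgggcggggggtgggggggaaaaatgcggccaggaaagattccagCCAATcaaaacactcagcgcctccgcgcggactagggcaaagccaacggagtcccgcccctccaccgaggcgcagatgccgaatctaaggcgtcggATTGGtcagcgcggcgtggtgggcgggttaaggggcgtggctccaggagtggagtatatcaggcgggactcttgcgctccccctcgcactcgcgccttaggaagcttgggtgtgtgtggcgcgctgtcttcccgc
The element starts 247 bases before the transcription start, and the CCAAT boxes start 181 and 85 bases before it. Both strands were searched for every motif. TCCCCGCC occurs in 5.38% of all windows and CCAAT in 37.4%. GC boxes (GGGCGG, the core of the site of Sp1, a general activator that also acts on Cirbp) had 3 matches here and 4 in the downstream window, chr10:80167921-80168220, against 35.7% of all windows with at least 1 match. Neither Cirbp window held the clock E-box CACGTG (7.15% of all windows), the binding motif AGGTCA of REV-ERB and ROR receptors (16.3%), the heat shock element GAANNTTC (7.86%), the cAMP response element TGACGTCA (1.79%) or the D-box in the forms TTATGTAA (0.938%) and TTACGTAA (0.119%). A match is a description of the letters and not of binding.

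Values are log2 expression on the scale deposited by the authors, on which a difference of 1 is a doubling. Levels of different probe sets depend on their probes and were not compared. The median over all tested probe sets of an array lay between 6.71 and 6.79. Arrays correlated with each other at r between 0.962 and 0.995. ZT0 replicate 4 stood apart, with a median r of 0.970 to the others, where the other arrays had 0.988 to 0.993. Dopamine neuron markers were present, with list means between 8.28 and 8.45 over the time points, and none of the 5 (Th, Slc6a3, Slc18a2, Ddc, Aldh1a1) had an adjusted p under 0.05 for a 24-h rhythm.

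Cirbp mRNA followed a smooth daily curve with its crest late in the light phase and its low point late in the dark phase. The 4 mice had 6.95, 6.95, 7.07 and 7.04 at ZT0 and 7.13, 7.10, 7.20 and 7.17 at ZT4. They had 7.45, 7.40, 7.17 and 7.24 at ZT8 and 7.26, 7.39, 7.29 and 7.42 at ZT12. In the dark phase the values were 7.20, 7.06, 6.95 and 7.08 at ZT16 and 6.87, 6.93, 7.03 and 6.96 at ZT20. ZT4 was 0.15 above ZT0 on average, which did not pass (limma, adjusted p = 0.9998), and ZT16 spread over the range of ZT0 and ZT4. The means were 7.00 ± 0.06, 7.15 ± 0.05, 7.32 ± 0.13, 7.34 ± 0.08, 7.07 ± 0.10 and 6.95 ± 0.07 from ZT0 to ZT20 (SD, n = 4 each).

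The fitted 24-h cosine of Cirbp had a swing of 0.41 from trough to crest (standard error 0.06), a 1.33-fold difference, with its crest at ZT 9.42 (standard error 0.53 h) and its trough at ZT 21.4. It was 1 of the 7 probe sets among 23410 (0.0299%) that passed limma's moderated F-test (adjusted p = 0.00357), and it ranked second of all by p after Nr1d1, the gene of the clock repressor REV-ERBα. The median swing over all tested probe sets was 0.10 and the 95th percentile 0.25. The cosine took up 77.3% of the variance of Cirbp and the 6 time points as free levels 79.8%. The spread between mice of 1 time point was small for Cirbp (SD 0.09, against a median of 0.13 over all tested probe sets). With time point as a factor in place of the cosine, the adjusted p of Cirbp was 0.128. Without all mice of ZT8, ZT12 or ZT20 it was 0.0821, 0.222 and 0.0940. Without those of ZT0, ZT4 or ZT16 Cirbp passed (limma, adjusted p = 0.0199, 0.0243 and 0.00605). With each time point left out in turn, the fitted crest lay between ZT 9.06 and ZT 9.84.

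Rbm3, like Cirbp, had its highest mean at ZT12, and its values differed more between mice of a time point. The probe set that stands for Rbm3 had 9.11, 9.16, 9.41 and 9.22 at ZT0 and 9.39, 9.51, 9.34 and 9.32 at ZT4. It had 9.73, 9.68, 9.17 and 9.66 at ZT8 and 9.84, 9.78, 9.69 and 9.51 at ZT12. In the dark phase it had 9.43, 9.70, 9.47 and 9.49 at ZT16 and 9.54, 9.39, 9.43 and 9.08 at ZT20. At ZT8, 3 mice lay close together and replicate 3 had 9.17, within the range of ZT0. The means were 9.22 ± 0.13, 9.39 ± 0.09, 9.56 ± 0.26, 9.70 ± 0.14, 9.52 ± 0.12 and 9.36 ± 0.20 from ZT0 to ZT20 (SD, n = 4 each).

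**Figure D1:**
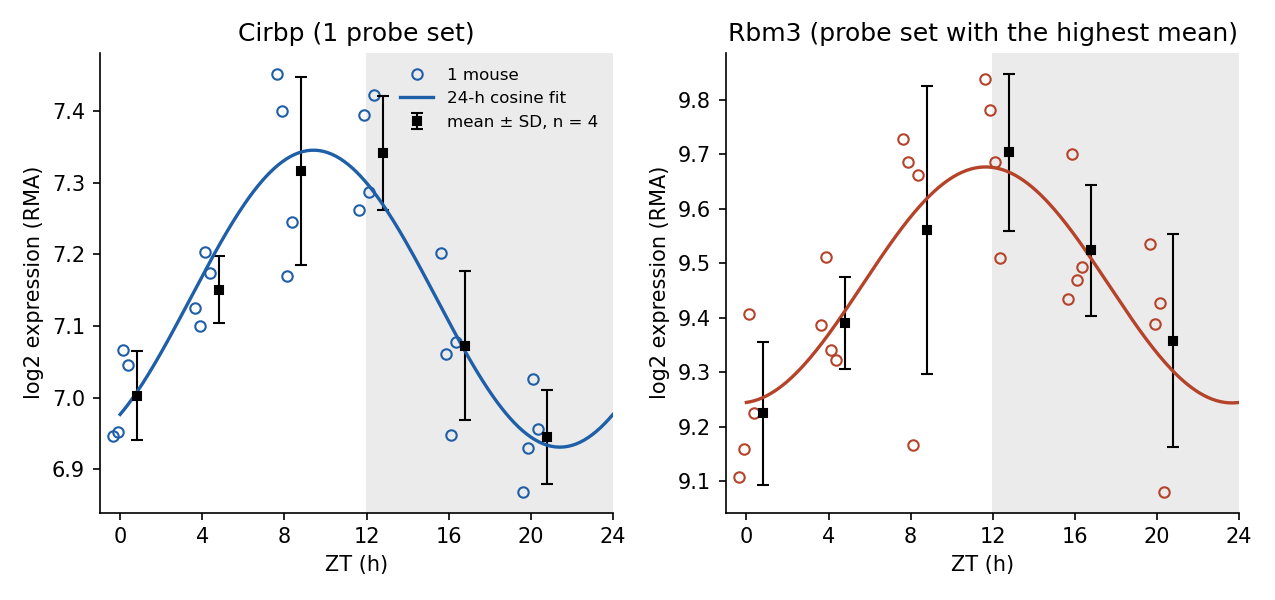
Log2 expression of Cirbp (left) and of the Rbm3 probe set with the highest mean (right) against ZT in hours, with 1 open circle per mouse, black squares for the mean ± SD of 4 mice (drawn to the right of them), the fitted 24-h cosine as a line and the dark phase shaded. Cirbp crests at ZT 9.42 and Rbm3 at ZT 11.6, and 1 ZT8 mouse lies at 9.17 in the right panel, below the other 3 of that time.

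The Rbm3 cosine had a swing of 0.43 (standard error 0.09), a 1.35-fold difference, with a fitted crest at ZT 11.6 (standard error 0.76 h) and a trough at ZT 23.6. It did not pass over all probe sets (limma, adjusted p = 0.113, unadjusted p = 0.000112), although it ranked 21 of 23410 by p. An unadjusted p under 0.05 was reached by 8.91% of all tested probe sets. The SD of Rbm3 within a time point was 0.17, against 0.09 for Cirbp. The cosine took up 52.2% of the variance of Rbm3.

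The other Rbm3 probe sets gave the same order of time points. The second probe set averaged 9.04, 9.30, 9.43, 9.56, 9.39 and 9.15 from ZT0 to ZT20, with SDs of 0.12 to 0.28, and the third 8.81, 9.01, 9.13, 9.24, 9.07 and 8.86, with SDs of 0.09 to 0.24. Their fitted crests were at ZT 11.1 and ZT 10.9, with 1.39-fold and 1.33-fold swings. Neither passed (limma, adjusted p = 0.113 for the second and 0.141 for the third). Across the 24 arrays, Pearson's r was 0.946 and 0.948 between the first probe set and the other two, and 0.990 between those, so the probe sets share their arrays and their deviations and are not separate support. The largest gap was in ZT0 replicate 4, the array that stood apart, where the second probe set had 8.81, its lowest value of all arrays.

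**Figure D2:**
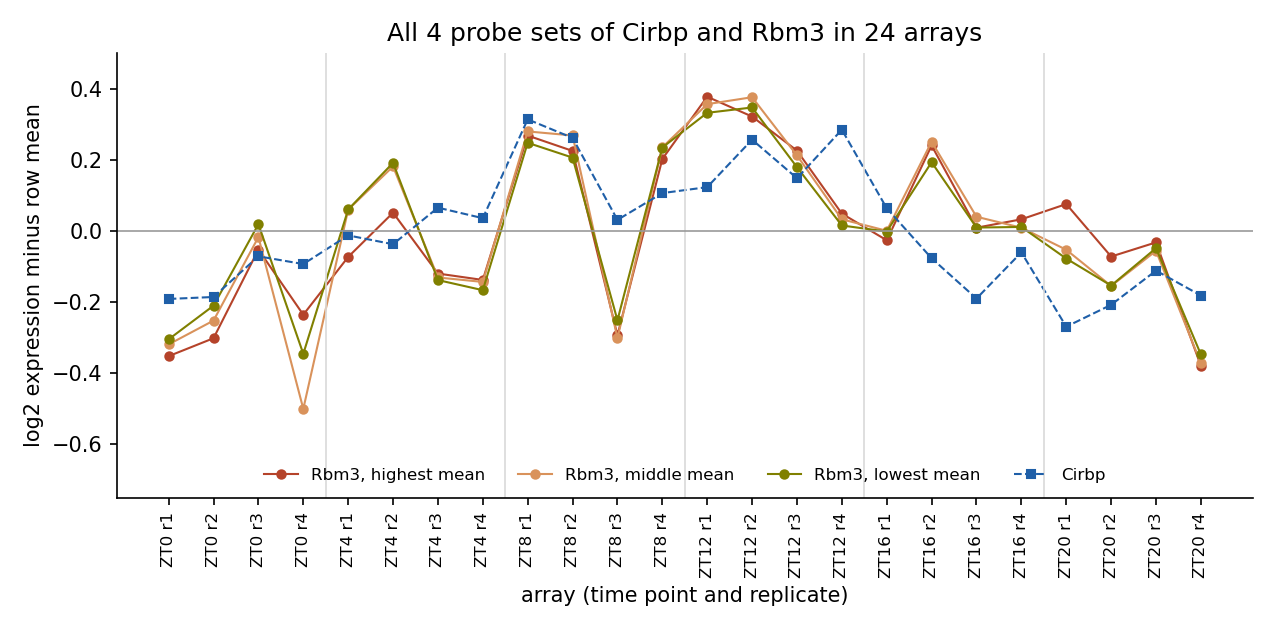
Log2 expression of the 4 probe sets minus the mean of each, by array in the order of ZT and replicate (r), with circles and solid lines for the 3 Rbm3 probe sets and squares and a dashed line for Cirbp. The Rbm3 probe sets move together (r of 0.946 to 0.990) and drop together in ZT8 replicate 3, while Cirbp drops less there.

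The call for Rbm3 depended on 1 mouse and on the scaling. After a further quantile normalization of all 24 arrays Rbm3 passed (limma, adjusted p = 0.0114), with a fitted crest at ZT 12.4, as 1 of 19 probe sets. ZT8 replicate 3 had the lowest ZT8 value of Cirbp and of all 3 Rbm3 probe sets, and its deviation from the ZT8 mean was the largest of the 24 arrays in both genes (-0.15 for Cirbp and -0.39 for Rbm3). The array as a whole did not stand apart, with a median r of 0.992 to the others. Without it, the 3 Rbm3 probe sets had adjusted p values of 0.0106, 0.00764 and 0.0178 in limma, with 1.40-fold, 1.46-fold and 1.39-fold swings and fitted crests at ZT 11.1, 10.6 and 10.5. In that fit 12 probe sets passed (0.0513%), and Cirbp had an adjusted p of 0.00277. This mouse was singled out by its low Rbm3 values near the fitted crest, so leaving it out favours a larger Rbm3 swing. Without ZT0 replicate 4 the adjusted p was 0.00192 for Cirbp and 0.159 for Rbm3 (limma).

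Dusk (ZT8 and ZT12) was then set against dawn (ZT20 and ZT0), the opposite part of the day. These windows enclose the fitted crests and troughs of both genes in the same arrays. The comparison therefore restates the cosine fit and is not separate support. Cirbp at dusk had a lowest value of 7.17, a median of 7.34 and a highest value of 7.45, and at dawn a lowest of 6.87, a median of 6.95 and a highest of 7.07. All 8 dusk mice were above all 8 dawn mice, which held for 5 of the 23410 probe sets (0.0214%). Cirbp averaged 7.33 ± 0.10 at dusk and 6.97 ± 0.07 at dawn (SD, n = 8 each), a difference of 0.35 (standard error 0.05) that passed over all probe sets (limma, adjusted p = 0.00252). Cirbp and Nr1d1 were the 2 probe sets that were higher at dusk at this threshold (0.00854%), and 0 were lower, where 629 (2.69%) were higher and 475 (2.03%) lower at an unadjusted p under 0.05.

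Rbm3 at dusk had a lowest value of 9.17, a median of 9.69 and a highest value of 9.84, and at dawn a lowest of 9.08, a median of 9.31 and a highest of 9.54. The dusk and dawn ranges overlapped, with 6 of the 8 dusk mice above every dawn mouse. Rbm3 averaged 9.63 ± 0.21 at dusk and 9.29 ± 0.17 at dawn (SD, n = 8 each), a difference of 0.34 (standard error 0.08) that did not pass (limma, adjusted p = 0.334). The other probe sets differed by 0.40 (the second) and 0.35 (the third) and did not pass (limma, adjusted p = 0.227 and 0.317). The size of the Rbm3 difference was reached by 13 of all tested probe sets and that of Cirbp by 9. Without ZT8 replicate 3 the Rbm3 difference was 0.41 and passed (limma, adjusted p = 0.0204), and so did the second and the third probe set (limma, adjusted p = 0.0121 and 0.0236). In that fit 6 probe sets passed (0.0256%), all higher at dusk and Cirbp among them, and the 3 of Rbm3 are not separate support. ZT8 replicate 3 had the lowest Rbm3 value of the 8 dusk mice, so leaving it out was bound to raise the difference. Without ZT0 replicate 4 the difference was 0.36 for Cirbp and 0.34 for Rbm3 (limma, adjusted p = 0.00295 and 0.397).

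No single pair of time points passed for either gene. Of the 15 pairs, 0 passed over all probe sets for Cirbp or for any Rbm3 probe set in limma (0.00399% of all pairs over all probe sets passed). An unadjusted p under 0.05 was reached by 10 pairs for Cirbp and by 5, 7 and 6 pairs for the 3 Rbm3 probe sets, against 5% of all pairs over all probe sets. The smallest adjusted p was that of ZT12 minus ZT0 for each of the 4 probe sets, with a difference of 0.34 for Cirbp (limma, adjusted p = 0.143) and 0.48 for Rbm3 (limma, adjusted p = 0.177). In that pair 8 probe sets passed (0.0342%). From high to low, Cirbp had the order ZT12, ZT8, ZT4, ZT16, ZT0 and ZT20, with gaps of 0.02, 0.17, 0.08, 0.07 and 0.06 between neighbours (standard error 0.07). Rbm3 had the order ZT12, ZT8, ZT16, ZT4, ZT20 and ZT0, with gaps of 0.14, 0.04, 0.13, 0.03 and 0.13 (standard error 0.11). No pair of neighbours in either order differed beyond its spread after adjustment. ZT16 stood above ZT4 for Rbm3 and below it for Cirbp.

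The shapes of the 2 curves were compared by subtracting Rbm3 from Cirbp within each array. The difference, relative to its own mean over all arrays, was 0.10 ± 0.08 at ZT0, 0.08 ± 0.13 at ZT4, 0.08 ± 0.18 at ZT8, -0.04 ± 0.20 at ZT12, -0.13 ± 0.17 at ZT16 and -0.09 ± 0.22 at ZT20 (SD, n = 4 each). The means were above 0 from ZT0 to ZT8 and below 0 from ZT12 to ZT20, with overlap between mice. A 24-h cosine of the difference had a swing of 0.24 and a crest at ZT 4.25 and did not pass (permutation p = 0.0522, two-sided, 100000 permutations). The fitted crest of Rbm3 came 2.23 h after that of Cirbp, with a 95% interval of 0.484 to 3.98 h. For the second and the third Rbm3 probe set it came 1.67 h (-0.15 to 3.49 h) and 1.5 h (-0.33 to 3.34 h) after that of Cirbp, and both of these intervals include 0. The swings of the genes differed by 0.02 (Rbm3 minus Cirbp), with a 95% interval of -0.18 to 0.22. The p of the difference was 0.0198 without ZT12 replicate 4, and it was also under 0.05 without ZT4 replicate 2 (0.0256), ZT8 replicate 4 (0.0386), ZT16 replicate 1 (0.0257) or ZT20 replicate 4 (0.0227). It was 0.00078 after a further quantile normalization and 0.182, 0.255 and 0.136 with the second probe set, the third probe set or the mean of all 3 in place of the first (permutation tests).

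**Figure D3:**
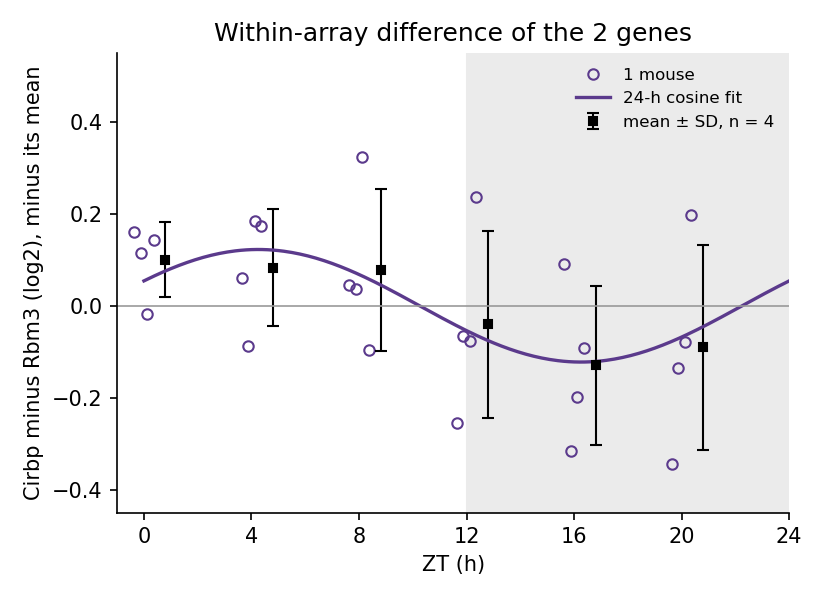
Cirbp minus Rbm3 (log2, within each array) minus its mean over the 24 arrays, against ZT in hours, with 1 open circle per mouse, black squares for the mean ± SD of 4 mice (drawn to the right of them), the fitted 24-h cosine as a line and the dark phase shaded. The means are 0.10 at ZT0 and -0.13 at ZT16, with mice on both sides of 0 at every time point.

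Across the 24 arrays the genes were correlated, with Pearson's r = 0.602 (permutation p = 0.00200, adjusted p = 0.00800 over 4 relations) and Spearman's rho = 0.549 (permutation p = 0.00617, adjusted p = 0.0247). Without the 2 arrays farthest from the median of Cirbp, r was 0.589 (permutation p = 0.00446, adjusted p = 0.00892). The relation was not detected between mice of 1 time point. Over deviations from the time point means r was 0.213 (permutation p = 0.524, adjusted p = 0.537) and rho 0.0991 (permutation p = 0.707). Without the 2 arrays with the most extreme Cirbp deviations, ZT8 replicates 3 and 1, that r was -0.148 (permutation p = 0.537).

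**Figure D4:**
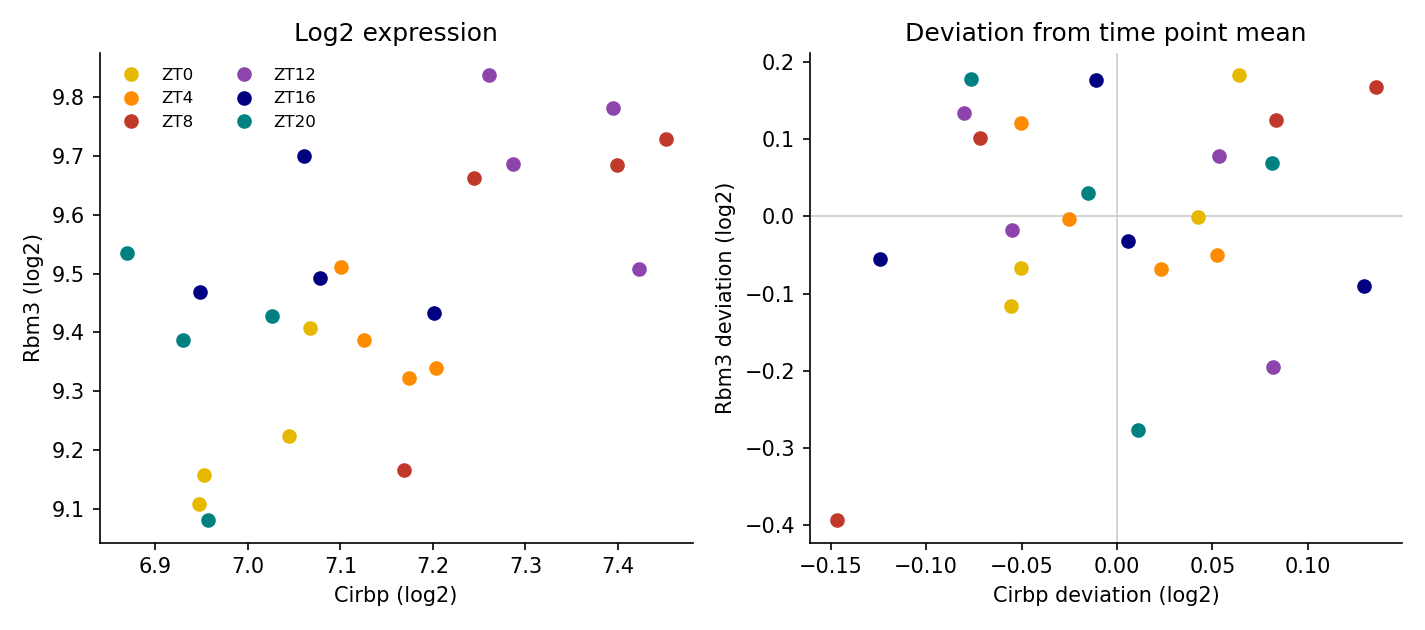
Rbm3 against Cirbp in the 24 arrays, 1 point per mouse coloured by ZT, as log2 expression (left, r = 0.602) and as deviation from the mean of the time point (right, r = 0.213). In the right panel ZT8 replicate 3 lies alone at -0.15 for Cirbp and -0.39 for Rbm3.

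The genes around Cirbp and Rbm3 were taken from lists of their relatives, of the heat shock response and of genes tied to them in earlier work. Of the 11 listed RNA-binding relatives and cold-shock-domain proteins, 9 had a probe set of their own, and 0 passed for a rhythm in limma, with 0 also at an unadjusted p under 0.05. Those with the smallest p were Rbmxl2 (1.12-fold, adjusted p = 0.662) and Rbmx (1.13-fold, adjusted p = 0.751), which are close relatives in the RBMX family, and Csdc2 (1.10-fold, adjusted p = 0.754) and Carhsp1 (1.09-fold, adjusted p = 0.763), which carry a cold-shock domain (all limma). Their median dusk minus dawn difference was 0.04, against 0.00 over all tested probe sets, with 6 higher and 3 lower.

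Most heat shock genes had lower means at dusk, unlike Cirbp and Rbm3. Of the 17 measured heat shock genes (of 20 listed), 15 were lower and 2 higher at dusk than at dawn, with a median of -0.09. Over all tested probe sets 52.5% were higher. After a further quantile normalization 17 were lower and 0 higher, with a median of -0.11. None passed over all probe sets in limma, while 5 were lower at an unadjusted p under 0.05, against 2.03% of all tested probe sets. Of the 17, 15 had their fitted crest within 6 h of the Cirbp trough (88.2%, against 47.8% of all tested probe sets). That trough lies between ZT20 and ZT0, so this count restates the dusk minus dawn count and is not separate support. For a rhythm 0 passed, against 0.0299% of all tested probe sets, and 5 had an unadjusted p under 0.05, against 8.91%. The 17 genes share their arrays and are not separate observations. The list was not refitted without ZT0 replicate 4, a dawn array. Hspb1, a small heat shock protein, averaged 7.40 ± 0.11 at dusk and 7.59 ± 0.11 at dawn (SD, n = 8 each), with a fitted crest at ZT 20.5 (limma, adjusted p = 0.410). Cryab, a related small chaperone of glial cells and lens, averaged 9.07 ± 0.13 at dusk and 9.31 ± 0.25 at dawn, with a fitted crest at ZT 22.9 (limma, adjusted p = 0.538). Dnajb1, a co-chaperone of Hsp70, and Hspa8, the constitutive Hsp70, differed by -0.21 and -0.13 between dusk and dawn (limma, adjusted p of the rhythm 0.528 and 0.350).

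**Figure D5:**
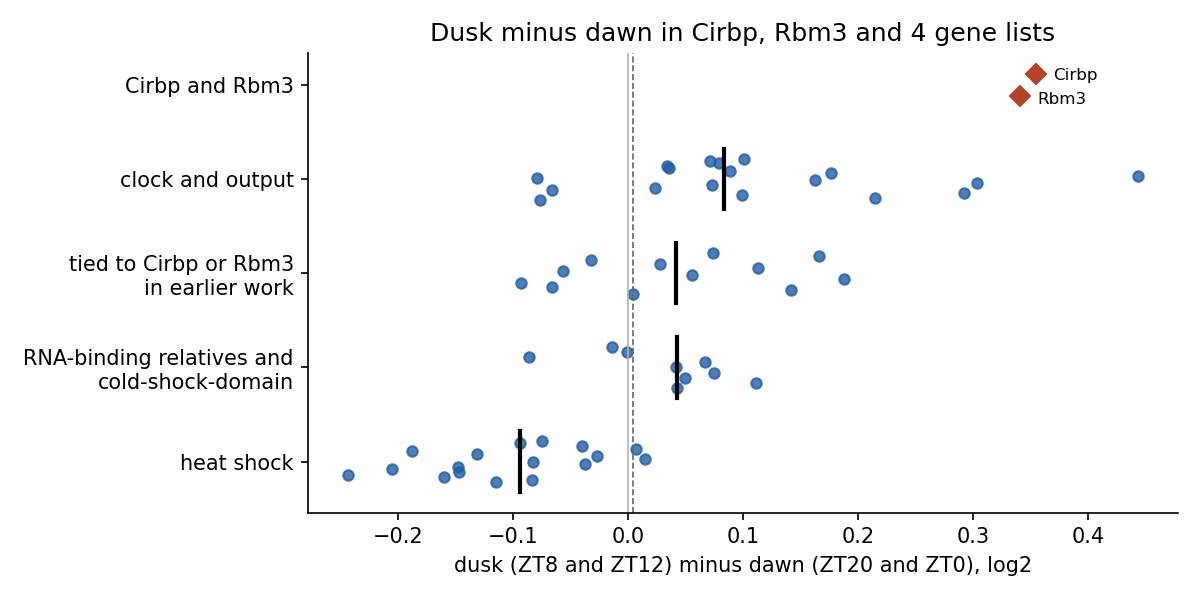
Dusk (ZT8 and ZT12) minus dawn (ZT20 and ZT0) on the log2 scale for Cirbp and Rbm3 (diamonds) and for the measured members of 4 gene lists (1 circle per gene, black bars at the list medians, dashed line at the median of all tested probe sets). Cirbp and Rbm3 lie at 0.35 and 0.34, and 15 of 17 heat shock genes lie below 0, down to -0.24.

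Among 12 genes tied to Cirbp or Rbm3 in earlier work, all measured, 0 passed for a rhythm in limma and 3 did at an unadjusted p under 0.05, against 8.91% of all tested probe sets. At dusk 8 were higher and 4 lower, where 52.5% of all tested probe sets were higher, and the median difference was 0.04. Hif1a, the oxygen-sensing transcription factor, had its fitted crest at ZT 9.67, near that of Cirbp, with a dusk minus dawn difference of 0.19 (limma, adjusted p of the rhythm 0.497). Plcg1, a signalling enzyme below growth factor receptors, Srsf5, a splicing factor, and Creb1, a cAMP-responsive transcription factor, had fitted crests at ZT 12.9, 6.34 and 18.2 (limma, adjusted p = 0.515, 0.551 and 0.611). Clock itself, the target known for Cirbp, had a 1.06-fold swing (limma, adjusted p = 0.826). Rbm3os, named here because it overlaps Rbm3, averaged 6.28 ± 0.18 at dusk and 6.37 ± 0.13 at dawn (SD, n = 8 each, limma, adjusted p = 0.980).

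Of 18 measured clock and clock output genes, 15 were higher and 3 lower at dusk, where 52.5% of all tested probe sets were higher. Their median difference was 0.08. For dusk minus dawn 1 of them, Nr1d1, passed in limma, against 0.00854% of all tested probe sets. For a rhythm 2 passed, Nr1d1 and Dbp, against 0.0299% of all tested probe sets. At an unadjusted p under 0.05 there were 10, against 8.91%. Nr1d1 had a fitted crest at ZT 9.22, next to the ZT 9.42 of Cirbp. Dbp, an output transcription factor, had its fitted crest at ZT 12.2 (limma, adjusted p = 0.0137), and Nr1d2, the paralog of Nr1d1, at ZT 12.5 (limma, adjusted p = 0.306), near the ZT 11.6 of Rbm3. Cry1, a clock repressor, had its fitted crest at ZT 15.7 (limma, adjusted p = 0.168), later than both.

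The genes whose log2 values ran most like those of each gene over the 24 arrays were sought among 9968 genes with a mean above the median. For Cirbp they were Nr1d1 (r = 0.839), Pllp, a proteolipid of myelin (0.814), Rhou (0.709), Mpv17l2, a mitochondrial protein (0.698), and Nop56, a nucleolar protein (0.669). Of these, Pllp had a 1.27-fold swing with its crest at ZT 9.00 (limma, adjusted p = 0.0507). Those running most against Cirbp were Btnl9 (-0.664), Ldhd, the D-lactate dehydrogenase (-0.662), and the heat shock gene Hspb1 (-0.660).

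For Rbm3 they were Actb, the cytoplasmic β-actin (r = 0.795), Rhou (0.774), Lhfpl3 (0.759), Tmem192, a lysosomal membrane protein (0.751), and Psme1, a proteasome activator subunit (0.727). Those running most against Rbm3 were Cldn5, the tight junction protein of brain endothelium (-0.701), Meak7 (-0.646) and Nfatc2, a transcription factor (-0.641). Rhou was on both lists, and Rbm3 ranked 26 among the genes most like Cirbp and Cirbp 64 among those most like Rbm3. Over deviations from the time point means, the r of Actb with Rbm3 was 0.594 and that of Nr1d1 with Cirbp 0.342. The points of these correlations share their array and time of day.

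Markers of other cell types were set beside the results. None of the 31 measured markers of 7 cell classes passed for a rhythm in limma. The mean of the 4 oligodendrocyte markers lay between 9.20 and 9.35 over dusk mice and between 9.04 and 9.35 over dawn mice, and that of the 5 endothelial markers between 7.59 and 7.81 over dusk mice and between 7.55 and 7.77 over dawn mice. The dusk and dawn ranges overlapped for all 7 classes. Ranges with all dusk arrays above all dawn arrays were rare among single probe sets (0.0214%), so this overlap does not show equal composition. Cldn5, of the endothelial list, had its fitted crest at ZT 23.5 and averaged 7.12 ± 0.15 at dusk and 7.37 ± 0.08 at dawn (SD, n = 8 each, limma, adjusted p = 0.442). The other endothelial markers differed between dusk and dawn by 0.14 (Slco1c1), 0.10 (Abcb1a), 0.07 (Pecam1) and -0.01 (Flt1), none of which passed. The 4 oligodendrocyte markers differed by 0.13 (Mog), 0.10 (Mag), 0.04 (Mbp) and -0.05 (Mobp), none of which passed either. The part of cell composition in the curves of Cirbp and Rbm3 was not tested. Body temperature was not analysed here, and the curves are given against ZT alone.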

How the data were processed

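VTA punches of 24 mice were hybridised to 1 GeneChip Mouse Gene 1.0 ST array each. The deposited log2 values were made by the authors with RMA in R 2.13.1. It subtracts background, gives the probe values of all arrays the same distribution and then summarises each probe set by median polish. A shift shared by most genes of an array is thereby largely removed. Array medians over the tested probe sets still ran from 6.71 to 6.79, and some results moved after a further quantile normalization. The sample labels, used for the groups, give 4-h intervals, while the paper's methods give 6-h intervals and CircWave, replaced here by limma.

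Of 35556 probe sets, 23410 with an annotated gene (21789 with 1 gene, 1621 with several) were tested without a filter on low values. Symbols were updated through RefSeq (GRCm38.p6) for 21698 of them.

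In R 4.3.3 with limma 3.58.1 (plots with matplotlib 3.10.9), a 24-h cosine was fitted to the log2 values and its terms were tested jointly (moderated F-test). The time points were also fitted as groups, with 15 pairs (later minus earlier) and dusk minus dawn. Adjusted p values are Benjamini-Hochberg over the 23410 probe sets, with a threshold of 0.05. Standard errors of crests and swings came from the delta method, and permutation tests were two-sided. The fits were tested on simulated data. Precision is limited by 4 arrays per time point.

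The genes, lists and comparisons were chosen with earlier results of these data known. Named genes are all probe sets of Cirbp and Rbm3, the 5 genes with the highest and the 3 with the lowest r with each, and the 4 members of each list with the smallest p. Clock, Rbm3os and single cell type markers were added with their values seen. The alternatives tried were other F-tests and regressions, linear values, other scalings and filters, array weights, a replicate block, the other Rbm3 probe sets, and each array or time point left out. The 3 Rbm3 probe sets without ZT8 replicate 3, their crests against that of Cirbp and the list medians under other scalings were added after seeing the data.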

Additional observations from a re-analysis of the deposited data

Results flagged for a closer look

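Within each time point, the highest and lowest of 4 mice were examined for a gap to the other 3 that was past Dixon's 95% critical value. This was done in 30 groups (the 4 probe sets and the Cirbp minus Rbm3 difference at 6 time points), and 5 groups met it, where chance gives about 1 in 20. The 3 Rbm3 probe sets are not independent, so the 5 groups come from 2 mice. ZT8 replicate 3 was low in all 3 Rbm3 probe sets, with 9.17 in the first (the other mice had 9.66 to 9.73), 9.01 in the second (9.55 to 9.59) and 8.77 in the third (9.22 to 9.27). Its Cirbp value, 7.17, was the lowest of ZT8 without meeting this criterion. ZT16 replicate 2 was high, with 9.56 in the second Rbm3 probe set (the others had 9.31 to 9.35) and 9.21 in the third (9.02 to 9.03).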

How the results depend on the processing

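Without each array in turn, Cirbp kept its rhythm call, with adjusted p from 0.00192 to 0.0134 and a crest between ZT 9.25 and ZT 9.69, and its dusk minus dawn difference ran from 0.33 to 0.38. It also kept the rhythm call in 13 of 17 other settings. The exceptions were time point as a factor (adjusted p = 0.128) and all mice of ZT8 (0.0821), ZT12 (0.222) or ZT20 (0.0940) left out. Without all mice of ZT0, ZT4 or ZT16, which also leaves 20 arrays, the call was kept (limma, adjusted p = 0.0199, 0.0243 and 0.00605). The cause of these differences was not tested. The adjusted p of the Rbm3 rhythm ran from 0.0106 (without ZT8 replicate 3) to 0.249 (without ZT12 replicate 2) and was 0.0114 after a further quantile normalization, and the cause was not tested. In 19 of 20 settings other than left-out arrays its call did not change. Its dusk minus dawn difference ran from 0.29 to 0.41 without single arrays. The count of pairs of time points was 0 for both genes in every one of these, and 1 for Rbm3 after the quantile normalization. The permutation p of the Cirbp minus Rbm3 difference ran from 0.0198 to 0.120 without single arrays, was 0.00078 after the quantile normalization and reached 0.255 with the third Rbm3 probe set, the cause not tested. The correlation across arrays ran from 0.557 to 0.668, and that of the deviations from -0.125 (without ZT8 replicate 3, where it reversed) to 0.321. The count of rhythmic probe sets, 7, ran from 4 to 12 without single arrays and from 0 to 19 in other settings, with 4 over all probe sets. The count for dusk minus dawn, 2, ran from 2 to 6, with 5 above the median level and 4 after the quantile normalization.

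On average, no shared deviation of same-numbered arrays of different time points was detected (mean r 0.03 over 60 pairs, 14 of them over 0.1). The r of these pairs ran from -0.30 to 0.58, and the mean was -0.01 for differently numbered pairs. Of 24 arrays, 8 correlated best with an array of their own number, a share not set against chance. Whether the numbers mark a batch or a pairing of mice was not settled by this. With the replicate number as a block, the adjusted p of the rhythm was 0.00851 for Cirbp and 0.0966 for Rbm3, dusk minus dawn was 0.35 for Cirbp (limma, adjusted p = 0.00975) and 0.34 for Rbm3 (0.289), the permutation p of the difference was 0.0517, r was 0.632 across arrays and 0.238 over deviations, and no call changed.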
